A study of Mus musculus with 4 samples.

Results

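The surface proteins by which mammary epithelial cells are sorted in the flow cytometer were followed here through their transcripts. The set held 10 genes, chosen by symbol, out of the 31053 genes of the deposited matrices, and all 10 were found. Single-cell RNA libraries came from the fourth mammary glands of 4 FVB mice taken at postnatal week 9. All 4 mice were homozygous for a floxed Tfap2c gene, which encodes the transcription factor AP-2γ, and all carried Krt5-CreERT2. That transgene places a tamoxifen-dependent Cre recombinase under the promoter of keratin 5, a keratin of basal cells, so the controls carried both alleles too. From week 4, 2 mice were injected daily with corn oil, the vehicle, and the other 2 with 4-hydroxytamoxifen (4OHT), which activates the recombinase. Each mouse gave 1 library, called corn oil 1, corn oil 2, 4OHT 1 and 4OHT 2.

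Mammary ducts have an outer basal layer of contractile cells and an inner luminal layer, and the luminal layer holds secretory progenitors and hormone-sensing cells. In a standard sort, blood and endothelial cells are removed by their own surface proteins, and epithelial cells are then split by CD24 or EpCAM on one axis and by the integrins α6 (CD49f) or β1 (CD29) on the other. Basal cells are described as low for the former and high for the latter, and luminal cells as the reverse. Sca-1, the integrin α2 chain (CD49b), the integrin β3 chain (CD61), KIT and CD44 have been used to divide these gates further. The counts here are of transcripts near their 3′ ends and not of surface protein.

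Cells with at least 1000 UMIs (unique molecular identifiers, 1 per captured transcript) were gated on genes outside the set. A cell was called basal when Krt5, Krt14, Krt17 and Acta2 together had at least 5 UMIs and over 3 times those of Krt8, Krt18 and Krt19. Luminal cells met the reverse rule. They were called hormone-sensing when Ly6d, Fxyd2 and Gpx3 had at least 3 UMIs and exceeded Wfdc18, Csn3 and Ltf, and were otherwise called luminal progenitors. This gave 7028 basal, 5629 luminal progenitor and 1168 hormone-sensing cells of 18223 deposited, while 3620 cells had mixed or too few keratin counts and stayed ungated. Marker lists outside the gates were each highest in the class they name, with counts in the others: the summed level of 8 basal markers averaged 1857 CPM (UMIs per 1000000 of the class total) in basal cells, 550 in progenitors and 41.0 in hormone-sensing cells. That of 8 progenitor markers was 7973 CPM in progenitors and 1988 in basal cells, and that of 8 hormone-sensing markers was 2072 CPM against 84.2 in progenitors. At equal depth per cell, Igfbp5 gave 3002 of 3329 basal-list UMIs in progenitors without Ly6a and 2518 of 2582 in those with it. Its level there was 3.29 and 15.7 UMIs per 10000. Basal cells had 2.01 without Cd24a and 2.27 with 5 or more Cd24a UMIs, so Igfbp5 ran against its list. Lcn2 gave 10678 of 14130 progenitor-list UMIs in those basal cells without Cd24a and 2057 of 2255 in the others. Each of these off-class sums thus came mainly from a single gene.

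Library totals ranged from 17351950 to 22017878 UMIs, and both libraries numbered 1 were deeper per cell (medians of 5299.5 and 4242 UMIs) than both numbered 2 (3619 and 3055). Pairs of libraries shared 18 to 36 cell barcodes. Hormone-sensing cells of 4OHT 1 carried fibroblast markers at 1351 CPM, against 54.1 to 244 CPM in the other 3 libraries. Class differences below are log2 fold changes from edgeR's quasi-likelihood test on the summed counts of 3 classes in 4 libraries, with the library as a block and Benjamini-Hochberg adjustment over 11135 genes. They are called at an adjusted p under 0.05. With that block, the p-values measure how class differences within a mouse vary between 4 mice, 2 of each treatment.

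Between basal cells and luminal progenitors all 10 genes passed the test, 4 higher in basal cells and 6 lower. Among all genes tested 56.1% passed, 29.5% higher and 26.6% lower, so a class difference was common. Hormone-sensing cells differed from luminal progenitors in 8 of the 10 genes (3 higher, 5 lower), with 46.4% of all genes passing, 21.9% higher and 24.6% lower. Basal and hormone-sensing cells differed in 8 of the 10 (5 higher, 3 lower), with 59.8% of all genes passing, 32.4% higher and 27.3% lower. Scaling by library totals alone moved the median of all genes by 0.27 (log2) towards basal cells and by 0.25 towards hormone-sensing cells, each against progenitors, and moved the split of called genes. The 3281 higher and 2965 lower calls in basal cells against progenitors became 4426 and 1919, and the 2434 higher and 2736 lower calls in hormone-sensing cells became 3387 and 1907.

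**Figure D1:**
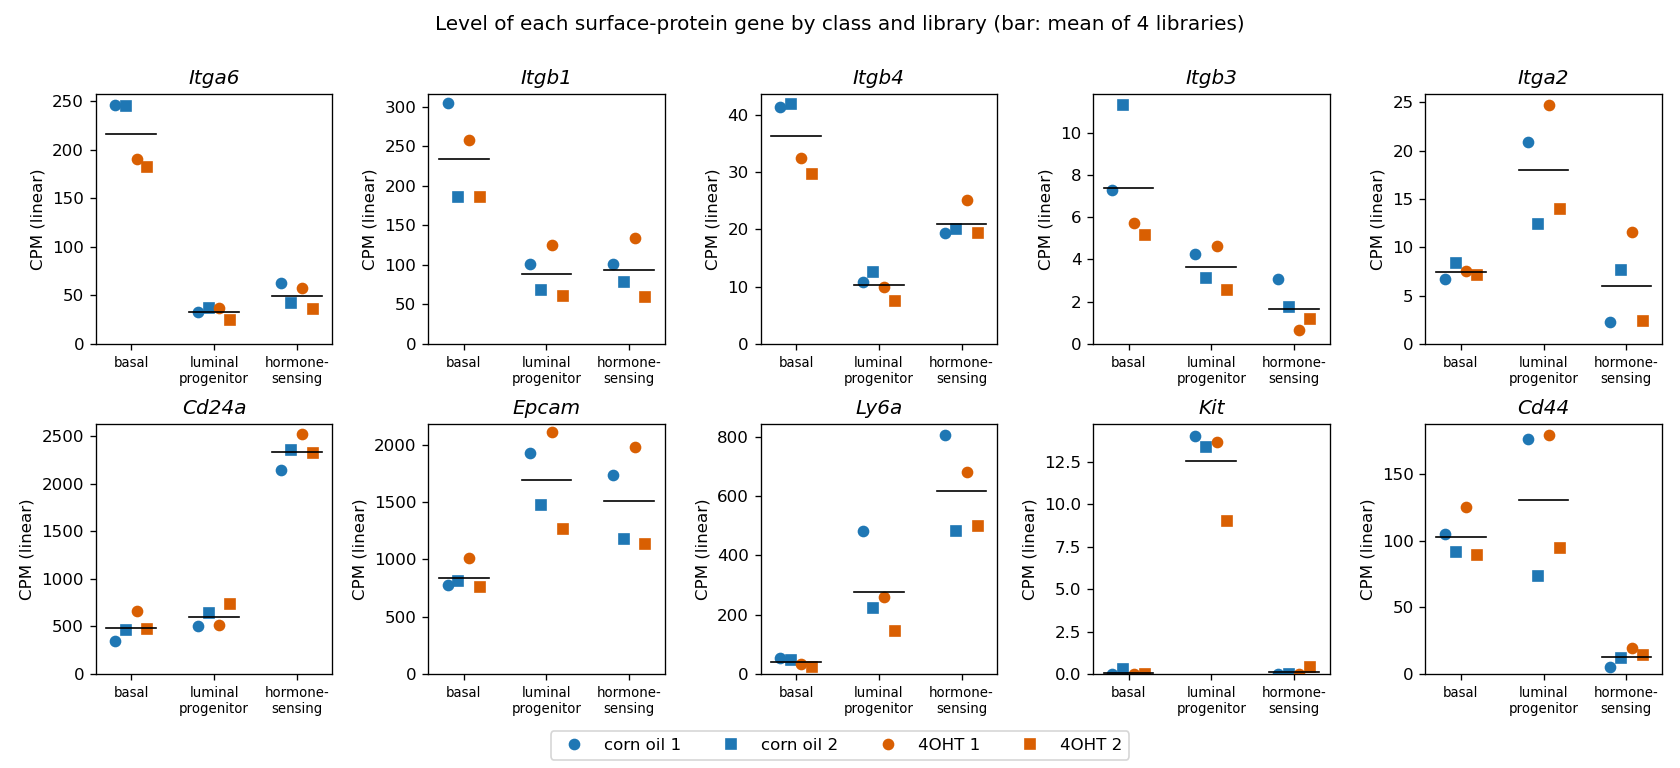
Level of each gene in CPM on a linear axis, in basal, luminal progenitor and hormone-sensing cells, with 1 point per library and a bar at the mean of 4 libraries. Itga6, Itgb1 and Itgb4 were highest in basal cells, Kit was at or near 0 outside progenitors, and Cd24a and Ly6a were highest in hormone-sensing cells.

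Itga6 encodes integrin α6, a laminin receptor, and lies on chromosome 2 (71745616 to 71858416, plus strand, GRCm38). Its level in basal cells was 247, 246, 191 and 182 CPM in corn oil 1, corn oil 2, 4OHT 1 and 4OHT 2. In luminal progenitors it was 33.2, 37.0, 37.0 and 24.3 CPM, and in hormone-sensing cells 63.2, 42.4, 57.3 and 35.8 CPM. Every basal value lay above every luminal value. Itga6 was higher in basal cells than in progenitors by 2.46 ± 0.14 (log2, SE; edgeR adjusted p = 5.52e-10), and higher than in hormone-sensing cells by 2.13 ± 0.15 (edgeR adjusted p = 5.02e-09). The 2 luminal classes did not differ past the threshold (0.33 ± 0.15, edgeR adjusted p = 0.0871). That difference passed under scaling by totals alone (0.58, edgeR adjusted p = 0.0057), with a gate ratio of 10 (0.47, edgeR adjusted p = 0.0273) and without the highest doublet scores (0.41, edgeR adjusted p = 0.0401).

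Itgb1 (chromosome 8, 128685654 to 128733200, plus strand) encodes integrin β1, the common partner of many α chains. It stood at 304, 186, 258 and 186 CPM in basal cells of the 4 libraries in the same order. Progenitors had 101, 68.7, 125 and 61.2 CPM, and hormone-sensing cells 102, 78.2, 134 and 59.8 CPM. The deeper libraries, numbered 1, were above those numbered 2 in all 3 classes, and the part of depth in these levels was not tested. Basal cells were higher than progenitors by 1.15 ± 0.14 (edgeR adjusted p = 3.19e-06) and than hormone-sensing cells by 1.34 ± 0.15 (edgeR adjusted p = 9.38e-07). The luminal classes differed by -0.18 ± 0.15 (edgeR adjusted p = 0.339), with hormone-sensing cells the lower, and by 0.07 under scaling by totals.

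Itgb4 (chromosome 11, 115974709 to 116008412, plus strand) encodes integrin β4, which pairs with α6 and anchors basal cells to the basement membrane through hemidesmosomes. Its level was 41.3, 41.9, 32.3 and 29.6 CPM in basal cells, 10.9, 12.6, 10.0 and 7.41 CPM in progenitors and 19.3, 19.999, 25.1 and 19.3 CPM in hormone-sensing cells. The 3 classes did not overlap in any library. Basal cells exceeded progenitors by 1.57 ± 0.15 (edgeR adjusted p = 2.49e-07). Hormone-sensing cells lay between the other classes, 0.81 ± 0.18 above progenitors (edgeR adjusted p = 0.00134) and 0.75 ± 0.16 below basal cells (edgeR adjusted p = 0.000914). With a gate ratio of 10 the latter difference was 0.40 (edgeR adjusted p = 0.0714).

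Itgb3 (chromosome 11, 104608000 to 104670476, plus strand) encodes integrin β3, or CD61, which has been used to mark luminal progenitors. Its level in progenitors was 4.27, 3.14, 4.64 and 2.58 CPM, below the 7.29, 11.3, 5.73 and 5.16 CPM of basal cells. Hormone-sensing cells had 3.08, 1.76, 0.644 and 1.18 CPM, which came from 11 UMIs in all. Basal cells were thus the highest class for the transcript, by 0.69 ± 0.28 over progenitors (edgeR adjusted p = 0.0437) and 2.13 ± 0.43 over hormone-sensing cells (edgeR adjusted p = 0.000488). Progenitors exceeded hormone-sensing cells, whose difference was -1.44 ± 0.47 (edgeR adjusted p = 0.0181). The call between basal cells and progenitors was lost without corn oil 1 (edgeR adjusted p = 0.0709), without corn oil 2 (0.329) and without 4OHT 2 (0.140). It was also lost under DESeq2 (0.169), with a gate ratio of 10 (edgeR adjusted p = 0.136), without the highest doublet scores (0.0552) and with no library block (0.0659). That between the luminal classes was lost without 4OHT 1 (edgeR adjusted p = 0.118), without 4OHT 2 (0.0654) and with a gate ratio of 10 (0.0634).

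The start-site windows of Itga2 and Kit held the palindrome GCCNNNGGC, the core that AP-2 factors are known to bind. Mean levels of both genes were highest in progenitors among the 3 classes. Those of Epcam and Cd44 were too, at 1694 and 131 CPM, and their windows held no match. RefSeq windows (GRCm38.p6, from 250 bases before to 50 after the start site) were at hand for 5 of the 10 genes: Epcam, Itgb1, Itga2, Kit and Cd44. The palindrome occurred in those of Itga2 and Kit, against 16.6% of all 32851 windows. The letters are a match and not a measured binding site. The windows are shown because the mice carried a floxed AP-2 gene. Capitals mark the match, which begins 134 bases before the start site of Kit and 135 before that of Itga2.
Kit, chr5:75574737-75575036, plus strand: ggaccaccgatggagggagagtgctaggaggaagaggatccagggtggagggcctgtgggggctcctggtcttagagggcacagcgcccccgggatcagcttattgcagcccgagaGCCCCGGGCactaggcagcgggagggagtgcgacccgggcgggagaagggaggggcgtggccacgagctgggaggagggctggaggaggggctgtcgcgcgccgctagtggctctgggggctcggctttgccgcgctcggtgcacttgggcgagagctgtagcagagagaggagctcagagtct
Itga2, chr13:114932051-114932350, minus strand: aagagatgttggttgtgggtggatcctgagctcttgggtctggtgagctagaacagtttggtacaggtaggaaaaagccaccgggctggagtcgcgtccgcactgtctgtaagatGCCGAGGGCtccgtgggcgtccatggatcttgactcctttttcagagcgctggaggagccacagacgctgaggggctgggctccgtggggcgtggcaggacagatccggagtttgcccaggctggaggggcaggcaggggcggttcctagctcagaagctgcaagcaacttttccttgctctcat

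Itga2 (chromosome 13, 114833081 to 114932100, minus strand) encodes integrin α2, or CD49b, a collagen receptor that pairs with β1. Progenitors had 20.9, 12.4, 24.8 and 14.0 CPM, basal cells 6.67, 8.41, 7.58 and 7.13 CPM, and hormone-sensing cells 2.31, 7.65, 11.6 and 2.36 CPM. Every progenitor value lay above every value of the other 2 classes. Basal cells were lower than progenitors by 1.51 on the log2 scale (SE 0.27, edgeR adjusted p = 0.000176), and hormone-sensing cells differed from progenitors by -1.89 ± 0.35 (edgeR adjusted p = 0.000374). Basal and hormone-sensing cells did not differ past the threshold (0.37 ± 0.38, edgeR adjusted p = 0.42).

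Cd24a (chromosome 10, 43578284 to 43584265, plus strand) encodes CD24, a small glycoprotein anchored in the membrane by a lipid. Its level was 2144, 2352, 2521 and 2327 CPM in hormone-sensing cells, 503, 640, 516 and 731 CPM in progenitors and 348, 462, 664 and 477 CPM in basal cells. Hormone-sensing cells stood apart in every library, whereas progenitors and basal cells overlapped. Hormone-sensing cells exceeded progenitors by 1.72 ± 0.14 (edgeR adjusted p = 1e-07) and basal cells were below hormone-sensing cells, with a difference of -2.31 ± 0.15 (edgeR adjusted p = 1.66e-09). Basal cells differed from progenitors by -0.58 ± 0.14 (edgeR adjusted p = 0.00227), and in 4OHT 1 the basal level was the higher of the pair. That call was lost under scaling by totals alone (-0.31, edgeR adjusted p = 0.0548) and with a gate ratio of 10 (-0.22, edgeR adjusted p = 0.282).

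Epcam (chromosome 17, 87635979 to 87651129, plus strand) encodes an epithelial adhesion protein. Its level was 775, 812, 1011 and 759 CPM in basal cells, 1925, 1473, 2115 and 1264 CPM in progenitors and 1733, 1178, 1977 and 1135 CPM in hormone-sensing cells. Both luminal classes lay above basal cells in every library, and within each luminal class both libraries numbered 1 lay above both numbered 2. Basal cells differed from progenitors by -1.25 ± 0.12 (edgeR adjusted p = 2.88e-07) and from hormone-sensing cells by -0.82 ± 0.12 (edgeR adjusted p = 2.57e-05). Hormone-sensing cells differed from progenitors by -0.43 ± 0.12 (edgeR adjusted p = 0.00839). The last call was lost under scaling by totals alone (-0.18, edgeR adjusted p = 0.188) and with no library block (-0.43, edgeR adjusted p = 0.0802).

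Ly6a (chromosome 15, 74994877 to 74998031, minus strand) encodes Sca-1, and belongs to a family of close copies in the same region. How reads shared between copies were counted is not given in the sources used here, so its counts are uncertain to that extent. Hormone-sensing cells had 805, 484, 682 and 500 CPM, progenitors 482, 224, 260 and 146 CPM, and basal cells 55.1, 47.6, 34.4 and 22.3 CPM. In every library the order was hormone-sensing, progenitor, basal, and all 3 steps passed the test. Hormone-sensing cells exceeded progenitors by 1.00 ± 0.17 (edgeR adjusted p = 0.000179), and basal cells differed from progenitors by -3.01 ± 0.19 (edgeR adjusted p = 1.19e-09) and from hormone-sensing cells by -4.02 ± 0.19 (edgeR adjusted p = 9.04e-11). Fibroblast-marker cells had 3584 CPM of Ly6a. The fibroblast list in hormone-sensing cells of 4OHT 1 was noted above. Without that library hormone-sensing cells still exceeded progenitors, by 0.96 (edgeR adjusted p = 0.0017).

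Kit (chromosome 5, 75574916 to 75656722, plus strand) encodes the receptor of stem cell factor. It had 354 UMIs in progenitors, 2 in basal cells and 1 in hormone-sensing cells. Progenitor levels were 14.0, 13.4, 13.7 and 9.02 CPM. The basal UMIs came from corn oil 2 (0.306 CPM) and the hormone-sensing UMI from 4OHT 2 (0.394 CPM), and every other library of those classes was at 0. The ratio of summed levels was 172 for progenitors over basal cells, with an exact 95% interval of 47.3 to 1426, and 89.9 over hormone-sensing cells, with 16.0 to 3559. Both intervals cover counting error only. By the edgeR test progenitors differed from basal cells at an adjusted p of 2.32e-09 and from hormone-sensing cells at 6.63e-07.

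Cd44 (chromosome 2, 102811141 to 102901665, minus strand) encodes the hyaluronan receptor CD44. It stood at 176, 73.5, 179 and 94.8 CPM in progenitors, 105, 91.6, 125 and 89.3 CPM in basal cells, and 5.40, 12.4, 19.3 and 14.6 CPM in hormone-sensing cells. Hormone-sensing cells were low in all 4 libraries, with a difference of -3.49 ± 0.28 from progenitors (edgeR adjusted p = 5.25e-08), and basal cells exceeded them by 2.93 ± 0.27 (edgeR adjusted p = 1.51e-07). Basal cells differed from progenitors by -0.56 ± 0.21 (edgeR adjusted p = 0.0349), although basal cells were the higher class in corn oil 2. That call was lost without corn oil 1 (edgeR adjusted p = 0.0873), without 4OHT 1 (0.104), under DESeq2 (0.0815), with no library block (edgeR adjusted p = 0.0902) and under scaling by totals (-0.28, edgeR adjusted p = 0.237).

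The other integrins split by class. Of 21 further integrin chains 11 could be tested, and between basal cells and progenitors 5 were higher in basal cells, 3 lower and 3 did not pass. Itga1, a collagen receptor chain, was at 24.9 against 0.958 CPM (4.50 ± 0.37, edgeR adjusted p = 3.49e-08), Itga9 at 12.4 against 0.456 CPM, and Itga5, a fibronectin receptor chain, at 43.4 against 2.09 CPM. Itgb6 went the other way, with 0.917 CPM in basal cells and 9.08 CPM in progenitors (-3.54 ± 0.42, edgeR adjusted p = 2.71e-06). Between the luminal classes 3 of the 11 were higher in hormone-sensing cells, 4 lower and 4 did not pass, and Itgb8 stood at 1.64 against 22.4 CPM in progenitors.

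Hemidesmosome genes were higher in basal cells than in progenitors, as Itgb4 was. All 7 tested outside the gate genes were higher in basal cells than in progenitors, with a median of 2.19 against 0.04 over all genes. Col17a1, a transmembrane collagen of the hemidesmosome, was at 56.9 against 1.40 CPM (5.03 ± 0.25, edgeR adjusted p = 1.17e-10). Lama3 and Lamb3, which encode laminin chains, differed by 3.47 and 2.87. Between hormone-sensing cells and progenitors 4 of the 7 were higher and 2 lower. Plec, which links integrin β4 to keratin, was at 59.4 against 17.7 CPM in hormone-sensing cells and progenitors (1.51 ± 0.17, edgeR adjusted p = 2.58e-06). Lama3 and Lamb3 were lower, with differences of -1.49 and -1.41, against 0.81 for Itgb4.

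The listed ligands, which bind the integrins, KIT or CD44, were mostly higher in basal cells than in progenitors. Of 15 tested, 13 were higher in basal cells than in progenitors, 1 was lower and 1 did not pass, with a median of 2.96. Col4a2 and Col4a1, the chains of basement membrane collagen, stood at 155 and 153 CPM in basal cells against 7.06 and 7.88 in progenitors, and Lama1 at 14.1 against 0.321 CPM. The exception was Spp1, which encodes osteopontin, a ligand of CD44 and of several integrins. It was at 3132 CPM in progenitors against 75.9 in basal cells (-5.74 ± 0.27, edgeR adjusted p = 5.52e-11) and 53.5 in hormone-sensing cells.

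Other surface proteins used on mammary cells went both ways: of 19 tested, 6 were higher in basal cells than in progenitors and 10 lower. Cd14, a lipopolysaccharide co-receptor, was at 532 CPM in progenitors and 11.0 in basal cells (-5.78 ± 0.27, edgeR adjusted p = 5.72e-11). Muc1 and Cd55 were lower in basal cells as well, at 1.05 against 39.7 and 0.835 against 18.9 CPM, while the cadherin Cdh3 was higher, at 59.4 against 1.53 CPM. Against hormone-sensing cells, progenitors were higher for 9 of the 19, and Tspan8, a tetraspanin, had 117 CPM against 1.99. All 4 tested relatives of Ly6a were lower in basal cells than in progenitors. Ly6c1 was higher in hormone-sensing cells than in progenitors (18.6 against 3.06 CPM, 2.40 ± 0.42, edgeR adjusted p = 0.000224). Of 12 interferon-response genes 4 were lower in basal cells than in progenitors and none higher, and 9 were lower and 2 higher in hormone-sensing cells. Of 8 genes used to exclude blood and endothelial cells 7 were found and only Pecam1 was tested. Pecam1 was called lower in basal cells than in progenitors (-0.39 ± 0.16, edgeR adjusted p = 0.0463), with mean levels of 26.6 and 27.0 CPM.

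Shares of cells with at least 1 UMI were compared after drawing 2000 UMIs from each cell, which left out 707 basal, 354 progenitor and 19 hormone-sensing cells. Itga6 was seen in 32.4% ± 4.7 (SD, n = 4 libraries) of basal cells, 5.15% ± 1.62 of progenitors and 9.29% ± 3.88 of hormone-sensing cells. In fibroblast-marker cells, which had at least 5 fibroblast marker UMIs and over 3 times those of the gates and other lists, the share was 2.33% (2 of 86), and in endothelial-marker cells, chosen likewise, 18.9% (25 of 132). Without the draw, median depths were 2827.5 to 5152.5 UMIs per library in basal cells, 3473 to 5281.5 in progenitors and 4745.5 to 8258 in hormone-sensing cells.

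Epcam was seen in 65.1% ± 5.3 of basal cells, 83.7% ± 3.5 of progenitors and 83.6% ± 8.6 of hormone-sensing cells, against 8.14% (7 of 86) of fibroblast-marker and 7.58% (10 of 132) of endothelial-marker cells. Free RNA in a droplet can give UMIs in cells that do not express a gene, and these shares were read as background. Cd24a was seen in 37.9% ± 3.4, 60.3% ± 4.6 and 83.9% ± 3.5 of the 3 classes in the same order, against 10.5% of fibroblast-marker cells and 31.1% (41 of 132, exact 95% interval 23.3 to 39.7) of endothelial-marker cells. The basal share of Cd24a thus lay within the interval of the endothelial-marker cells. Their summed level of Cd24a was 407 CPM, against 94.4 CPM in fibroblast-marker cells, while their level of Epcam was 43.2 CPM. Endothelial-marker cells were not shown to lack Cd24a, so their share of it was not read as background. For Ly6a the shares were 4.20% ± 1.45, 14.9% ± 3.7 and 45.2% ± 7.7. Fibroblast-marker and endothelial-marker cells had Ly6a in 66.3% and 40.9%, so neither served as a class without the gene.

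Kit was seen in 2.33% ± 0.52 of progenitors and in none of the 6321 basal and 1149 hormone-sensing cells, which allows shares of cells with a UMI at this depth of up to 0.0475% and 0.261%. These limit detection and not expression. It was seen in 4.55% (6 of 132) of endothelial-marker cells. For Cd44 the shares were 17.2% ± 2.2 in basal cells, 19.7% ± 7.1 in progenitors and 2.24% ± 1.17 in hormone-sensing cells. The last was no higher than the 3.79% (5 of 132) of endothelial-marker cells. Those cells were not shown to lack the gene, so background and low expression could not be told apart. Fibroblast-marker cells had Cd44 in 22.1% (19 of 86), a share near those of basal cells and progenitors. Itga2 was seen in 3.34% ± 1.16 of progenitors, and its shares in basal (1.15%) and hormone-sensing cells (1.19%) were near that of fibroblast-marker cells (1.16%, 1 of 86, exact 95% interval 0.0294 to 6.31). The progenitor share lay within that interval too. Before the draw, fibroblast-marker cells had 9 Itga2 UMIs, or 19.3 CPM, beside a mean of 18.0 CPM in progenitors. They were not shown to lack the gene, so this comparison does not set any class apart from background.

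**Figure D2:**
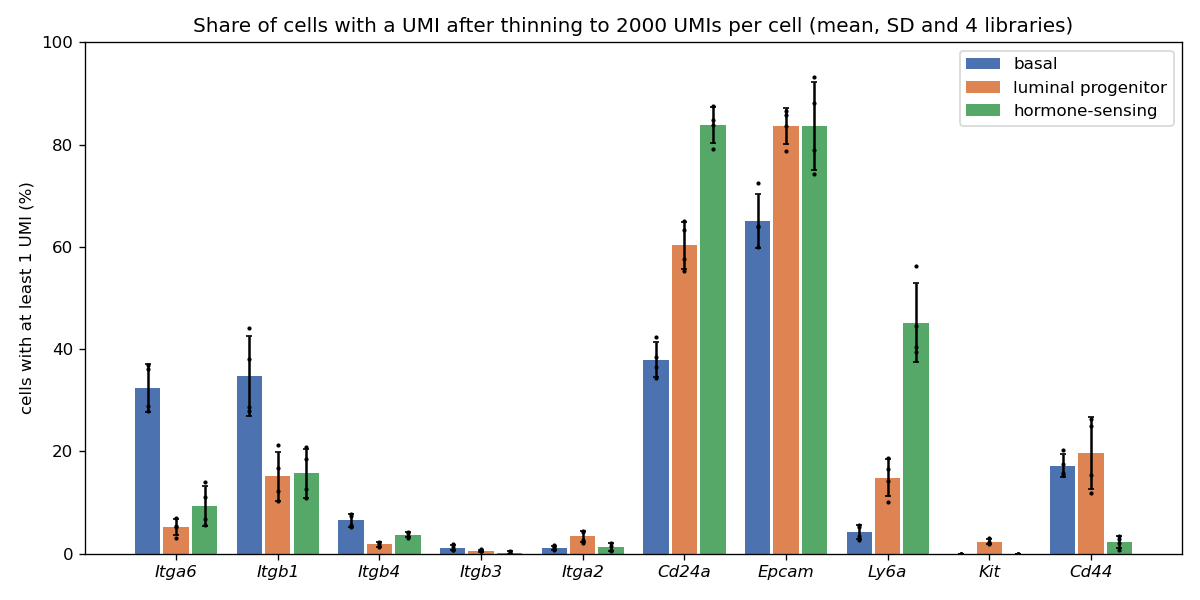
Percentage of cells with at least 1 UMI of each gene after every cell was drawn down to 2000 UMIs, with bars at the mean of 4 libraries, error bars of 1 SD and a dot per library. No gene was seen in all cells of a class: the highest means were 83.9% for Cd24a in hormone-sensing cells and 83.7% for Epcam in progenitors.

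How far these transcripts separate single cells was measured by the area under the curve (AUC), the chance that a cell of one class has more UMIs than a cell of another, with ties counted equally. For basal cells against progenitors it averaged 0.638 for Itga6, 0.602 for Itgb1, 0.397 for Cd24a and 0.337 for Epcam over 4 libraries. An AUC of 0.5 is no separation. The sum of Itga6 and Itgb1 minus the sum of Cd24a and Epcam, a transcript version of the sort, reached 0.722 (0.678 to 0.763 by library), and 0.683 when cells were drawn to 1000 UMIs. Against hormone-sensing cells it reached 0.826 (0.771 to 0.876). At 2000 UMIs the 2 integrins outnumbered Cd24a and Epcam in 14.6 to 23.9% of basal cells, 0.820 to 2.24% of progenitors and 0.424 to 1.84% of hormone-sensing cells. Between the luminal classes Cd24a alone gave 0.757 and Ly6a 0.648, with hormone-sensing cells the higher, and Cd44 gave 0.412.

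Cd24a was the most unevenly spread of the 4 sorting transcripts in basal cells. Its variance over cells was 3.61 to 8.24 times its mean by library, against 2.47 to 3.22 for Epcam, 1.13 to 1.27 for Itga6 and 1.14 to 1.27 for Itgb1. This ratio rises with the level for a given relative spread, and the genes differ in level. The 10% of basal cells with the most Cd24a held 58.4 to 64.4% of its UMIs, compared with 38.6 to 40.8% in progenitors, where the mean level was higher. Between 3.90 and 9.62% of basal cells had at least 5 Cd24a UMIs. Ly6a was uneven in progenitors, with a ratio of 3.82 to 9.95.

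**Figure D3:**
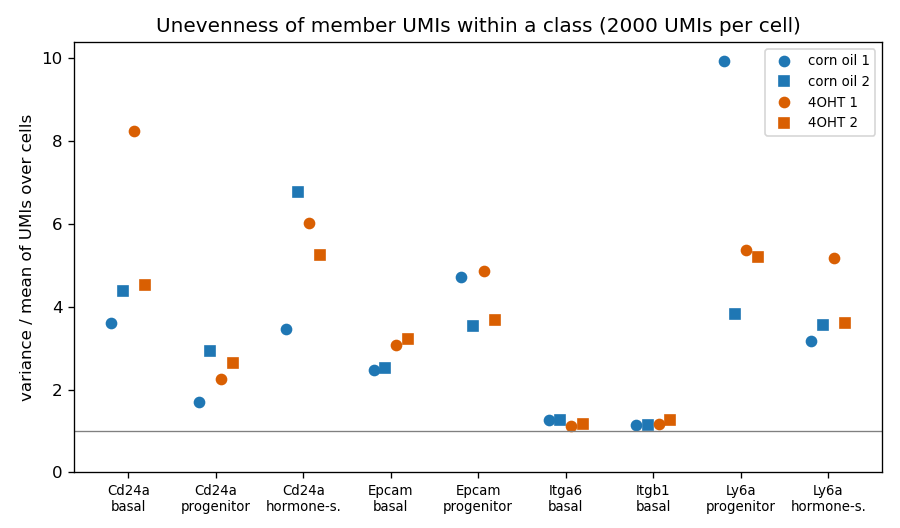
Variance over the mean of UMIs per cell at 2000 UMIs per cell, 1 point per library, for selected genes and classes, with a line at 1, the value of counting noise alone. Itga6 and Itgb1 in basal cells lay between 1.13 and 1.27, whereas Cd24a in basal cells lay between 3.61 and 8.24 and Ly6a in progenitors between 3.82 and 9.95.

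Basal cells with 5 or more Cd24a UMIs (375) were set beside those with none (3940), per 10000 UMIs and averaged over 4 libraries. They had more Krt14 (111 against 47.6) and Lcn2 (28.2 against 12.96), and less Acta2 (31.6 against 52.7), Oxtr (0.49 against 1.51) and Plet1 (0.61 against 2.70). Luminal keratins were lower, at 10.1 against 15.4. Among the sorting genes Itga6 (2.91 against 1.98) and Cd44 (1.41 against 1.00) were higher. Itgb4 (0.23 against 0.36) and Ly6a (0.134 against 0.279) were lower, from 17 and 10 UMIs in the cells with 5 or more. Each of these differences had the same sign in all 4 libraries, and as cells are not replicates none was tested. The cells also had fewer interferon-response UMIs (1.95 against 6.47), and more fibroblast-marker UMIs (0.885 against 0.513). The sum of the 8 basal markers, of which Oxtr is 1, was 17.8 against 17.7 and was higher in 2 of 4 libraries. The lower Oxtr was thus not shared by the list as a whole.

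The same relation to keratins appeared when basal cells were divided by their luminal keratin UMIs. Cd24a averaged 740, 659 and 406 CPM in basal cells with 0, with 1 or 2 and with 3 or more such UMIs (660, 2049 and 4319 cells). In corn oil 1 the middle set was the highest, at 428, 483 and 310 CPM. Itgb4 ran the other way, at 26.1, 30.8 and 39.6 CPM. The gate asks for more basal keratin UMIs in cells with more luminal ones, so the 3 sets were not gated alike. Depth also rose over the 3 sets in every library, with medians of 4006, 4435 and 5442.5 UMIs in corn oil 1. The part of the gate and of depth in these levels was not tested.

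Progenitors with a Ly6a UMI (773) were set beside those without (4502). They had 26.3 against 4.25 interferon-response UMIs per 10000, over 12 genes, with library ranges of 15.9 to 33.1 and 1.73 to 9.07 that did not overlap. Bst2 was at 4.60 against 0.67, Irf7 at 2.28 against 0.26 and Isg15 at 5.56 against 0.91. The milk-protein genes of the gate (Wfdc18, Csn3 and Ltf) summed to 158 against 75.7, and the luminal keratins to 93.3 against 186. Singly, Ltf was higher in 3 of 4 libraries and Krt19 lower in 3 of 4. Cd14 stood at 16.0 against 3.23 and Igfbp5 at 15.7 against 3.29, and Plet1 at 4.91 against 11.8. Of the sorting genes Epcam (27.6 against 15.5), Itga6 (0.478 against 0.239) and Kit (0.202 against 0.109) were higher, and Cd44 (0.724 against 1.49) was lower. Fibroblast markers were at 0.742 against 0.107 and hormone-sensing gate genes at 2.44 against 0.739, and their part in these differences was not tested.

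**Figure D4:**
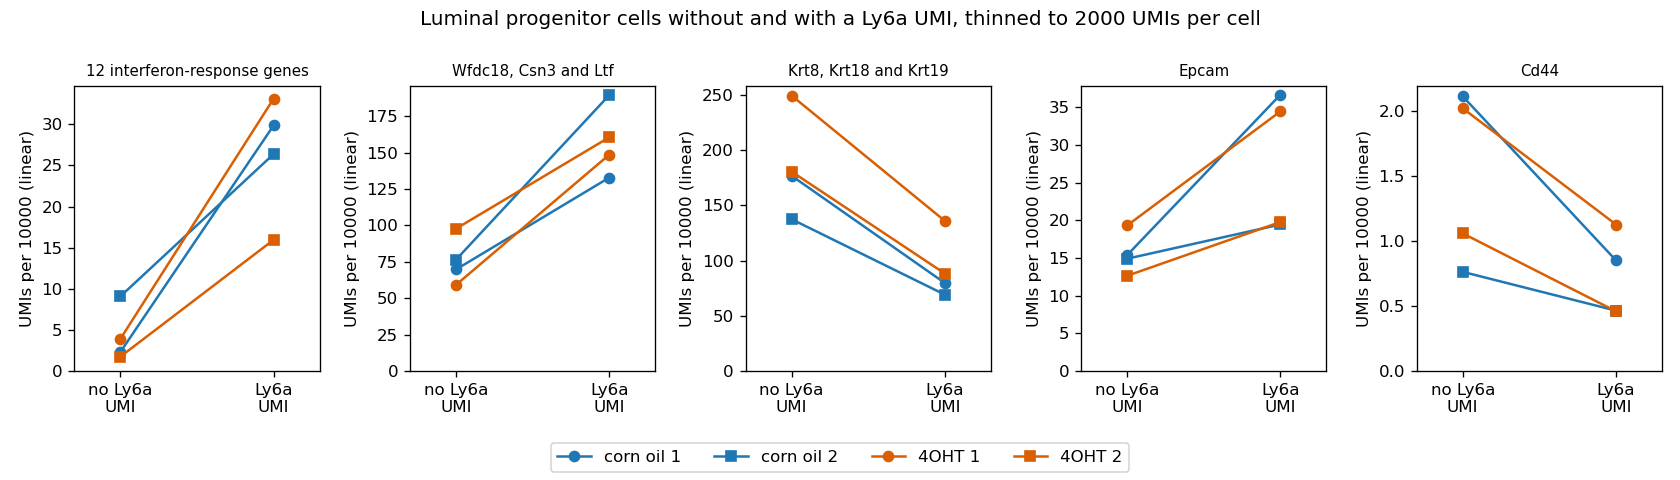
UMIs per 10000 in luminal progenitor cells without and with a Ly6a UMI, at 2000 UMIs per cell, with 1 line per library and linear axes. In all 4 libraries the sum of the interferon-response genes, the sum of Wfdc18, Csn3 and Ltf, and Epcam were higher in cells with Ly6a, and the sum of the luminal keratins and Cd44 were lower.

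Progenitors with a Kit UMI (123) resembled those with Ly6a in part. Their progenitor gate genes were at 178 against 86.5 per 10000 in the 5152 cells without Kit, Igfbp5 at 15.9 against 4.88, Cd14 at 10.5 against 5.01 and Krt18 at 57.5 against 123, each with the same sign in 4 libraries. Ly6a was at 3.95 against 2.59, also higher in 4 of 4. Interferon-response genes averaged 14.8 against 7.43, higher in 3 of 4. Elf5 differed between the splits: it was higher with Kit (2.06 against 1.41) and lower with Ly6a (1.02 against 1.49), each in 4 libraries. Mfge8 was at 18.2 against 8.79 with Kit, higher in 4 of 4, and at 8.52 against 9.11 with Ly6a, higher in 1 of 4. No Itgb3 UMI fell in a cell with Kit, where 0.732 shared cells were expected, too few to read.

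Progenitors with a Cd44 UMI (1067) went the other way for some genes only. Against the 4208 without, they had more Aldh1a3 (4.00 against 1.92 per 10000), an aldehyde dehydrogenase used to mark progenitors, more Itga2 (0.339 against 0.151) and more Krt18 (146 against 115). Ly6a (1.07 against 3.10) and Igfbp5 (3.12 against 5.80) were lower. All 5 held in each library. Krt18 and Igfbp5 ran opposite to their direction in cells with Ly6a or Kit. Aldh1a3 and Itga2 were higher in cells with Ly6a as well, at 2.84 against 2.21 and 0.260 against 0.170, each in 4 of 4 libraries.

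Pairs of genes were counted in the same progenitors against the number expected if their detection were independent within a library. Ly6a and Cd44 met in 87 cells against 156.6 expected, with ratios of 0.369, 0.695, 0.674 and 0.545 in corn oil 1, corn oil 2, 4OHT 1 and 4OHT 2. Itga2 and Cd44 met in 68 cells against 39.9 (ratios 1.39 to 2.55), Itga6 and Ly6a in 71 against 41.5 (1.41 to 2.20), and Ly6a and Kit in 30 against 18.4 (1.16 to 2.23). Itga2 and Ly6a met in 35 against 26.7 (1.06 to 1.63). In hormone-sensing cells 44.6% had Ly6a and not Itga2, whereas in progenitors 14.2% had Ly6a only and 2.67% Itga2 only. CD49b and Sca-1 are the pair by which the luminal gate is commonly divided.

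Across the 12 sums of library and class, the gene whose log2(CPM + 1) was most like that of Cd24a was Wfdc2, which encodes a secreted protease inhibitor (Pearson r = 0.988), followed by the gate gene Fxyd2 (0.986) and Ptn (0.983), among 4140 genes. Kit was most like Sbsn (0.980), Spp1 (0.979) and C530043A13Rik (0.978). Cd44 was most like Mgat4b (0.976), Mme (0.973) and Lurap1l (0.971), Ly6a like Rbm47 (0.969), Inhbb (0.967) and Prdx3 (0.966), and Epcam like Osbpl3 (0.961), Ahr (0.953) and Cdh1 (0.945). Itga6 was most like Itm2c (0.989), Saraf (0.987) and Fem1b (0.984), Itgb1 like Polr2d (0.986), Ccng2 (0.976) and Appl1 (0.975), and Itgb4 like Tspan4 (0.973), Rcn1 (0.972) and Fnta (0.971). Itgb3 (Zfp131 0.922, Car9 0.919, Sf3b4 0.916) and Itga2 (Hat1 0.890, Cxcl16 0.888, Fam3c 0.882) had lower best values. The 12 sums share 4 libraries and 3 classes, so these values mainly describe the order of the classes.

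4OHT was compared with corn oil within each class, 2 libraries against 2. Tfap2c itself, the floxed gene, measured 389 and 285 CPM with corn oil and 285 and 325 CPM with 4OHT in basal cells, a difference of -0.08 ± 0.25 (log2, SE; edgeR adjusted p = 0.999). A 3′ count can include transcripts that lost an internal exon, so this level does not show how far the gene was deleted. It averaged 321 CPM in basal cells, 43.5 in progenitors and 8.99 in hormone-sensing cells.

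None of the 10 genes passed the test of 4OHT against corn oil in any class, fitted without a replicate block. The gene filter left 9 of them in basal cells, 10 in progenitors and 8 in hormone-sensing cells. Among all genes, edgeR called 0 of 10788 in basal cells (0.0%; 465 had an unadjusted p under 0.05, and DESeq2 called 36), 0 of 10120 in progenitors (166 unadjusted, DESeq2 1) and 1 of 7589 in hormone-sensing cells (0.0132%; 240 unadjusted, DESeq2 1). With 2 mice a group, a difference that was not called is not shown to be absent.

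In basal cells Ly6a had 55.1 and 47.6 CPM with corn oil and 34.4 and 22.3 CPM with 4OHT, so both 4OHT libraries were lower. The difference was -0.83 ± 0.26 (edgeR unadjusted p = 0.0175, adjusted p = 0.999). In progenitors the difference was -0.73 ± 0.41 and in hormone-sensing cells -0.15 ± 0.28. The effect did not differ past the threshold between basal cells and progenitors (-0.19 ± 0.34, edgeR adjusted p = 1), and 0 of 11434 genes passed that test of the difference (0.0%; 429 unadjusted).

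Interferon-response genes also had lower values with 4OHT in basal cells. Their summed level in basal cells was 895 and 1573 CPM with corn oil and 454 and 287 CPM with 4OHT. All 12 had a lower fitted level with 4OHT in basal cells, with a median of -1.60 against -0.02 over all genes, although none passed the test and 10 had an unadjusted p under 0.05. In progenitors the sums were 709 and 1225 CPM with corn oil and 835 and 320 CPM with 4OHT. Endothelial markers in basal cells were at 14.5 and 51.7 CPM with corn oil and 11.1 and 64.1 with 4OHT, and were higher in both libraries numbered 2. The part of the interferon response in the Ly6a levels was not tested.

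Itga6, Itgb4 and Itgb3 had lower values in both 4OHT libraries of basal cells, and none was called. Itga6 was at 247 and 246 CPM with corn oil and 191 and 182 CPM with 4OHT, a difference of -0.36 ± 0.21 (edgeR adjusted p = 0.999). Itgb4 was at 41.3 and 41.9 CPM with corn oil and 32.3 and 29.6 CPM with 4OHT (-0.38 ± 0.24). Itgb3 was at 7.29 and 11.3 CPM against 5.73 and 5.16 CPM (-0.73 ± 0.37). Cd24a in basal cells was the reverse, 348 and 462 CPM with corn oil against 664 and 477 CPM with 4OHT (0.52 ± 0.26, edgeR adjusted p = 0.999). Groups did not overlap for these 4 genes and Ly6a, 5 of the 9 tested, while 30.7% of all genes tested in basal cells had groups that did not overlap. Itgb1 (-0.10 ± 0.27), Itga2 (0.01 ± 0.33), Epcam (0.19 ± 0.22) and Cd44 (0.16 ± 0.22) had smaller differences.

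In progenitors only Itgb4 among the 10 had groups that did not overlap (10.9 and 12.6 against 10.0 and 7.41 CPM, -0.33 ± 0.33), with 24.9% of all genes in that state. Kit was at 14.0 and 13.4 CPM with corn oil and at 13.7 and 9.02 CPM with 4OHT (-0.18 ± 0.32, edgeR adjusted p = 1). In hormone-sensing cells Cd44 was at 5.40 and 12.4 CPM with corn oil and at 19.3 and 14.6 CPM with 4OHT (0.82 ± 0.48, edgeR adjusted p = 1), where 30.5% of all genes did not overlap. The sum of fibroblast markers in the 4OHT 1 library, 1351 CPM, stands beside that value, and its part was not tested. The other 7 tested genes lay between -0.22 and 0.24 there.

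**Figure D5:**
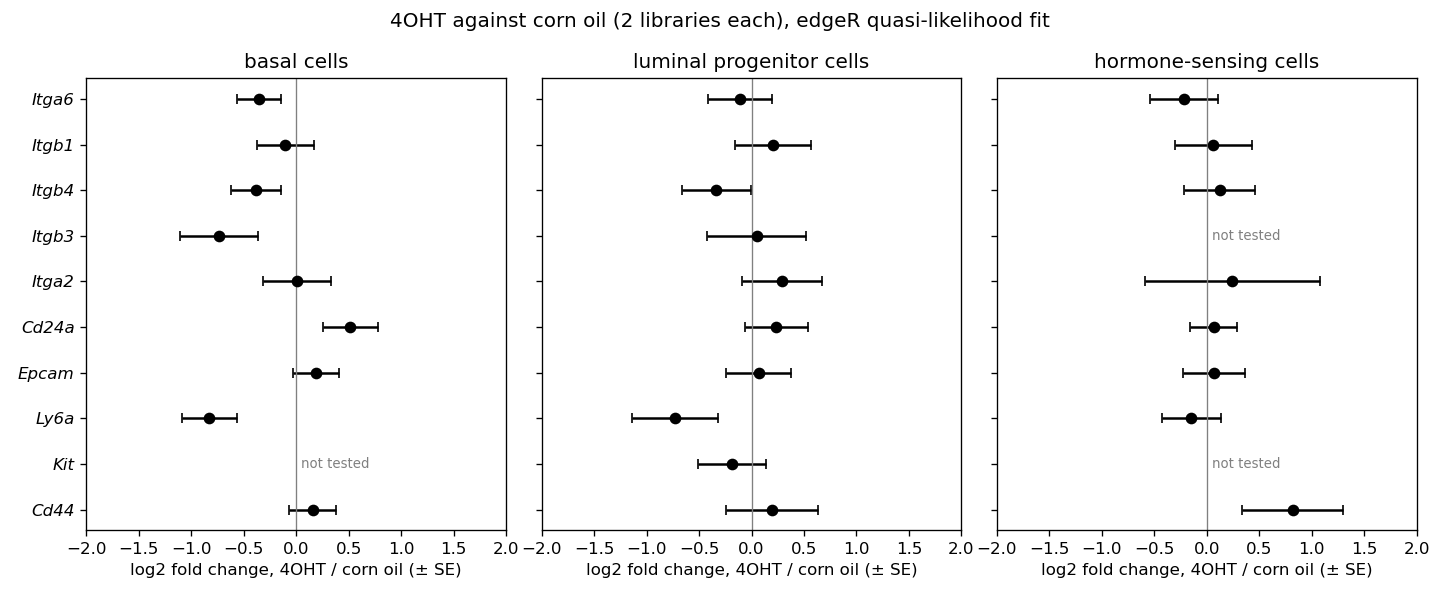
Log2 fold change of 4OHT over corn oil for each gene in basal, luminal progenitor and hormone-sensing cells, as edgeR estimates with bars of 1 SE from 2 libraries per group. No gene passed the adjusted threshold, and in basal cells Ly6a at -0.83 and Itgb3 at -0.73 lay farthest below 0.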

How the data were processed

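Libraries were 3′ single-cell libraries (10x Genomics Chromium), sequenced on an Illumina instrument per the labels. The authors made raw UMI counts per gene and cell with Cell Ranger 3.0.1 and an mm10 reference, per the labels, and deposited 4 matrices. No deposited value column was left unassigned to a library. Depth and cell numbers are given in the results. Strand use, intron counting and cell-calling settings are not given in the sources used here.

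From these counts, UMIs were summed per library and class, and CPM is a sum over the class total. Sums were tested with edgeR 4.0.16 in R 4.3.3 (quasi-likelihood, TMM factors, filterByExpr, Benjamini-Hochberg over all genes tested, threshold 0.05). Class contrasts used the library as a block, treatment contrasts no block, and the difference between basal cells and progenitors an interaction term. DESeq2 1.42.0 was an alternative. The fits were tested on simulated data. Cells were drawn to 2000 UMIs with a fixed seed (numpy 2.4.6), and intervals of pooled shares are exact Clopper-Pearson at 95%. The limit beside a share of 0 is 3 counts of the total. Both cover counting error only. Doublets were scored with Scrublet (scanpy 1.11.5), whose automatic threshold marked 0.0721 to 0.52% of cells and was not used, so doublets stayed in. Leaving out the highest scores (0.8% per 1000 cells) was an alternative. Every pair of replicate libraries differed by more than counting noise.

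The genes of the set, the gates and the lists (integrins, hemidesmosome, ligands, other surface proteins, Ly6 family, interferon response, lineage exclusion, cell type markers) were chosen with earlier results of these data known. Genes named besides the 10 were the 3 most like each of them over the 12 sums (mean of at least 20 CPM, pseudocount of 1) and up to 4 of each list with the largest called fold change, and 1 gene that this rule names is not reported here. Genes named in the comparisons within a class come from the marker, gate and interferon lists and were picked after their values were seen. The labels give the injections as 5 days in one place and a longer course in another. Positions are from an annotation of GRCm38 and promoter windows from RefSeq. Other gate ratios (10), cell filters and scalings, and leaving out each library, are reported under the processing heading.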

Additional observations from a re-analysis of the deposited data

Results flagged for a closer look

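In sets of 4 libraries, the highest or lowest library was set against Dixon's 95% limit in each of the 30 pairs of gene and class. Chance passes it in about 1 set in 20. In 2 of the 4 sets that passed, those of Kit outside progenitors, the other 3 libraries were at 0, so any UMI would have passed. Itgb4 in hormone-sensing cells had 25.1 CPM in 4OHT 1, apart from 19.3 to 19.999 CPM in the others. Kit in luminal progenitors had 9.02 CPM in 4OHT 2, apart from 13.4 to 14.0 CPM in the others. Kit in basal cells had 0.306 CPM in corn oil 2 and in hormone-sensing cells 0.394 CPM in 4OHT 2, each against 0 in the others and each from 1 or 2 UMIs.

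The 3620 cells with at least 1000 UMIs that met no gate entered no comparison, yet they carried every gene of the set. Over the 4 libraries they had 321 CPM of Cd24a, 1115 of Epcam, 173 of Itga6, 234 of Itgb1 and 92.1 of Cd44. For the rarer transcripts they had 42.2 CPM of Itgb4, 8.39 of Itgb3, 17.1 of Itga2, 173 of Ly6a and 3.90 of Kit.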

How the results depend on the processing

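Of 390 class contrasts of single genes under other settings 362 kept their direction and their side of the threshold, and 310 of 350 treatment effects did. The number of genes called between basal cells and progenitors stayed between 5041 and 7013. Low counts limit Kit outside progenitors and Itgb3 and Itga2 in hormone-sensing cells. Where a direction or a call changed, the cause was not tested.

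Equal replicate numbers deviated together (correlations of 0.559, 0.317 and 0.220 in basal, progenitor and hormone-sensing cells), but there are only 2 such pairs and the labels do not tie them, so they share a number only. With the replicate number as a block, treatment calls were 167 in basal cells (74 higher, 93 lower), 9 in progenitors, 3 in hormone-sensing cells and 14 for the interaction, 1 gene of the set passed in basal cells (Ly6a at -0.84, edgeR adjusted p = 0.037, against 0.52 to 1.000 in the other settings), and Itgb1 in hormone-sensing cells was -0.027.

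Without the count filter treatment calls were 93 (basal), 39 (progenitor), 59 (hormone-sensing) and 55 (interaction), and Itga2 in basal cells was -0.012. DESeq2 called 36 in basal cells and 1 in progenitors. With a gate ratio of 10, 1 gene was called in progenitors, Itga2 was -0.128 with 4OHT in basal cells and -0.183 for basal against hormone-sensing cells, and Itgb3 in progenitors was -0.056. With at least 2000 UMIs per cell 0 genes were called in hormone-sensing cells (edgeR; the call at 1000 UMIs was Ctsr), and Itga2 in basal cells was -0.018. Scaling by totals alone, added after the data were seen, gave treatment values of -0.033 for Itga2 in basal cells, -0.026 for Itgb3 and -0.0078 for Epcam in progenitors, 0.0049 for the Itgb4 interaction, and 0.071 for Itgb1 in hormone-sensing cells against progenitors. Without the highest Scrublet scores Itgb3 in progenitors was -0.021, Itga2 in hormone-sensing cells -0.017, and Kit in basal against hormone-sensing cells 1.20. At 1000 UMIs the AUC of the sorting score for basal cells against progenitors was 0.683.

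Leaving out each library in turn gave 17 (without 4OHT 2) to 127 (without 4OHT 1) treatment calls in basal cells, 31 to 64 in progenitors, 4 to 80 in hormone-sensing cells and 0 to 63 for the interaction. A group of 1 library is then assumed to vary like the other. Treatment effects that changed sign ranged, in basal cells, from -0.344 to 0.235 (Itgb1) and -0.199 to 0.267 (Itga2). In progenitors they ranged from -0.315 to 1.02 (Cd44), -0.319 to 0.587 (Itgb1), -0.372 to 0.349 (Itgb3), -0.103 to 0.778 (Itga2), -0.272 to 0.346 (Epcam), -0.369 to 0.114 (Itga6), -0.447 to 0.031 (Kit) and -0.109 to 0.518 (Cd24a). In hormone-sensing cells they ranged from -0.559 to 0.069 (Itga6), -0.071 to 0.232 (Cd24a), -1.15 to 1.53 (Itga2), -0.393 to 0.173 (Ly6a), -0.597 to 0.515 (Itgb1), -0.365 to 0.390 (Epcam) and -0.051 to 0.276 (Itgb4). For basal against hormone-sensing cells Kit ranged from -3.10 to 2.22 and Itga2 from -0.037 to 0.788. For the interaction the ranges were -0.207 to 0.440 (Epcam), -0.786 to 0.466 (Cd44), -3.90 to 0.232 (Kit), -0.970 to 0.309 (Itga2), -0.747 to 0.338 (Ly6a), -0.572 to 0.068 (Itga6), -0.140 to 0.740 (Cd24a), -0.596 to 0.065 (Itgb1) and -0.263 to 0.142 (Itgb4).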
